A study of Mus musculus with 2 samples.

Results

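The RUNX motifs are the 3 sequence patterns named RUNX1, RUNX2 and RUNX3 counted, with 576 other transcription factor motifs, in single cells of the embryonic mouse retina. They were picked out of the motif table by name, and all 3 were found. Chromatin accessibility was measured with the 10x Genomics single-cell assay in 2 replicate libraries of wild-type (WT) retina at E14.5, a mid-gestation stage, with no other genotype, treatment or age. The labels do not say whether the libraries came from separate animals, so the SDs below rest on a spread between libraries that could be technical. The p-values come from fits with a term for the library, unless stated otherwise. They rest on how unlike the libraries were in their differences between classes of cells, and that spread could be technical too. A motif count, as the 10x software defines it, sums the transposase cuts of a cell over the accessible peaks that hold the pattern. It measures chromatin around the pattern, not expression of a Runx gene or binding by its protein.

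RUNX proteins bind DNA through a shared runt domain, together with the partner CBFB, at the core letters TGTGGT, which read ACCACA on the other strand. RUNX1 is known for blood formation and for the identity of pain-sensing neurons. RUNX2 is the main regulator of bone formation, and RUNX3 is known from T cells and proprioceptive sensory neurons. Microglia, the resident myeloid cells of the retina, also use RUNX1, with SPI1 (PU.1) and IRF8. The RUNX shares were therefore examined for a small group of cells high for RUNX, SPI1 and IRF8 at once, and for a gradient along the motifs of POU class 4 factors, which mark retinal ganglion cells.

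To show the letters of the core in place, the RUNX core was searched on both strands in RefSeq promoters of the GRCm38.p6 build, from 250 bases before to 50 after each start site. TGTGGT occurred in 5506 of 32851 promoters (16.8%), and the longer TGTGGTT, which contains it, in 1731 (5.27%). A tandem pair, TGTGGTNNTGTGGT, occurred in 7 promoters (0.0213%), and 3 of these belonged to Runx1, Runx2 and Runx3 themselves. The Runx1 window lies at chr16:92826025-92826054 on the minus strand, the Runx2 window at chr17:44814583-44814612 on the minus strand and the Runx3 window at chr4:135120503-135120532 on the plus strand. They are written 5′ to 3′ along each gene, with the core in capitals:
Runx1: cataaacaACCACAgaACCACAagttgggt
Runx2: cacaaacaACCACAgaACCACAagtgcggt
Runx3: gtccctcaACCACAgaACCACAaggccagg
The pair stood at an offset of 28 bases from the annotated start site in Runx1, 23 in Runx2 and -134 in Runx3. The other promoters listed for Runx1 and Runx3, at chr16:92697280-92697579 and chr4:135152295-135152594, had no TGTGGT. Which of these promoters were accessible in the cells was not analysed here, because the counts are summed over peaks. A match of letters is a description and not a bound site.

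Cells were barcodes with at least 300000 motif counts and more counts than the same barcode had in the other library, which left 890 cells in replicate 1 and 1051 in replicate 2, with a median of 3519151 and 3523871 counts. The libraries shared 1828 barcodes. Of the barcodes below the minimum, 925 of 1532 in replicate 1 and 870 of 1980 in replicate 2 passed it in the other library. No doublet caller was run.

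All 3 RUNX motifs were counted in every kept cell, at nearly constant shares. RUNX3 was the most frequent pattern, with a pooled share of 0.0672% of motif counts in replicate 1 and 0.0666% in replicate 2. RUNX1 followed with 0.0404% and 0.0418%, and RUNX2 with 0.0325% in both. By rank RUNX3 stood at 206 and 207 of all motifs, RUNX1 at 292 and 285, and RUNX2 at 333 and 335, around the median motif at 0.0408%. How frequent a pattern is depends on its length and letters, so this order says nothing about which factor is most active.

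In single cells of replicate 1 the RUNX1 share ran from 0.0279% to 0.0511% with a median of 0.0403%, and in replicate 2 from 0.0298% to 0.0562% with a median of 0.0418%. The RUNX2 share ran from 0.0202% to 0.0451% in replicate 1, with a median of 0.0326%, and from 0.0246% to 0.0457% in replicate 2, again with a median of 0.0326%. The RUNX3 share ran from 0.0460% to 0.0829% in replicate 1, with a median of 0.0671%, and from 0.0510% to 0.0807% in replicate 2, with a median of 0.0665%. No cell lacked a RUNX motif, and the lowest count in a cell was 75, for RUNX2. The ranges of the libraries overlapped for each motif, but the RUNX1 median of replicate 2 lay at the upper quartile of replicate 1, 0.0418% in both cases. Median counts per cell were 1420 and 1466 for RUNX1, 1135 and 1148 for RUNX2, and 2333 and 2340 for RUNX3.

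**Figure D1:**
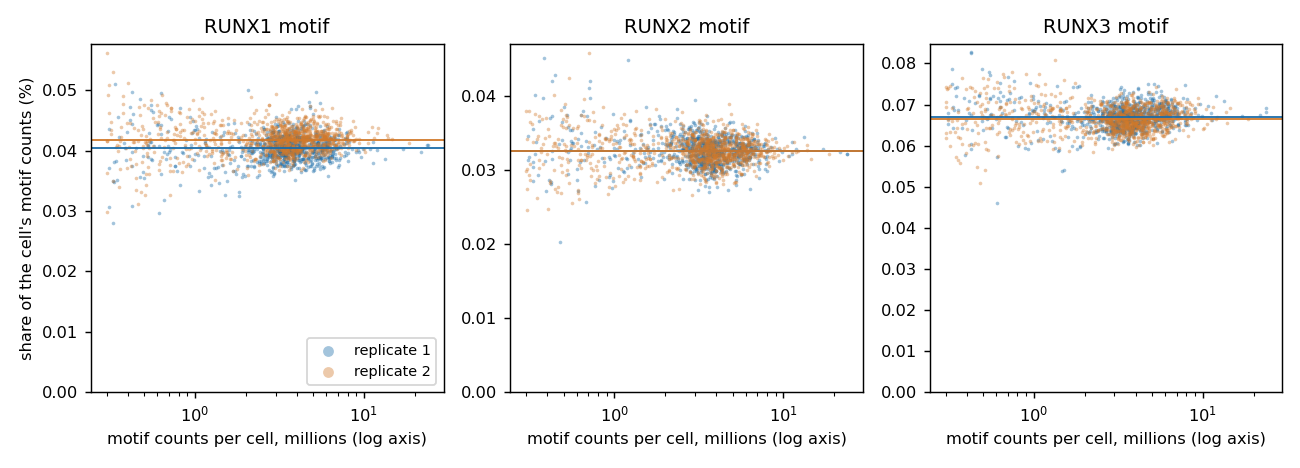
Each point is a kept cell: the horizontal axis is its total of motif counts (log axis), the vertical axis the percentage of that total from RUNX1, RUNX2 or RUNX3, blue for replicate 1 and orange for replicate 2, with a line at each library's median. The clouds look nearly flat across depth and are widest among shallow cells. Only RUNX1 has visibly separate medians, 0.0403% and 0.0418%.

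Between libraries, RUNX1 was higher in replicate 2 by a log2 ratio of 0.050, larger in size than that of 424 motifs (73.2%). RUNX2 differed by 0.0021 and RUNX3 by -0.013, against a median absolute ratio of 0.021 over all motifs. A ratio of single libraries carries no test. The RUNX1 shift exceeds in size the RUNX1 difference along ganglion cell motifs described below.

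Variation between cells was small. The coefficient of variation (CV) beyond counting noise was 4.89% ± 0.23 (SD, n = 2) for RUNX1, 5.32% ± 0.29 for RUNX2 and 4.13% ± 0.10 for RUNX3. The median motif had 6.23% ± 0.057, and 201, 248 and 135 motifs were less variable than RUNX1, RUNX2 and RUNX3 in replicate 1, and 162, 205 and 122 in replicate 2. By contrast POU4F1, the ganglion cell motif, had 15.7% ± 0.76, SPI1 8.03% ± 0.14 and IRF8 17.0% ± 0.86. The share at the 95th percentile of cells was 1.20 times that at the 5th for RUNX1 in both libraries, 1.22 and 1.23 times for RUNX2, and 1.16 and 1.17 times for RUNX3. Part of this spread moved with depth. Within the middle of 3 depth classes the ratio for RUNX1 fell to 1.16 in both libraries, and in the shallowest class it was 1.28 and 1.29. Cuts from both ends of a fragment are not independent, so the excess CV may still hold some counting noise.

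The motifs of the family did not vary as a unit. Across kept cells, with depth regressed out, RUNX2 and RUNX3 had a Pearson r of 0.33 in replicate 1 and 0.34 in replicate 2. RUNX1 had an r of -0.071 and 0.022 with RUNX2 and of 0.035 and 0.048 with RUNX3. In the deepest of 3 depth classes, with 296 and 350 cells, RUNX2 and RUNX3 reached 0.42 and 0.44, while RUNX1 stood at -0.16 and 0.0064 with RUNX2 and at 0.0063 and -0.053 with RUNX3. The correlation of RUNX2 and RUNX3 was thus higher in the deepest cells of both libraries. These are descriptions across cells, which are no replicates, and motifs found in the same peaks share counts. No RUNX motif had counts identical to those of any other motif.

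Among the motifs most like the mean RUNX share across cells were IRF1 (mean r of 0.27 over the libraries), Stat6 (0.24) and FOXC1 (0.23), followed by FOXI1, FOXD2, FOXO4 and FOXO6, which share identical values (0.23). IRF1 is an interferon factor, Stat6 a cytokine-signalling factor and FOXC1 a forkhead factor of the eye's mesenchyme. For FOXC1 the likeness was 0.31 in replicate 1 and 0.15 in replicate 2. The least like were ZNF263 (-0.20), HIF1A (-0.19), ZBTB7B (-0.18) and INSM1 (-0.18). All of these correlations were weak. SPI1 stood at 0.10 and IRF8 at 0.011, and POU4F1, POU4F2 and POU4F3 at -0.13, -0.10 and -0.13.

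An immune tail was looked for as cells above their library's median by at least 3 scaled median absolute deviations (MADs) in the mean RUNX share, in SPI1 and in IRF8, with depth regressed out. No cell met all of these conditions: 0 of 890 in replicate 1, with a Wilson 95% interval of 0 to 0.430%, and 0 of 1051 in replicate 2, with an interval of 0 to 0.364%. A count of 0 among 1941 cells allows a share of up to 0.155% for cells meeting the rule. Intervals and limits cover counting error only, and the rule reads motif shares and not cell identity. Cells high for RUNX numbered 9 and 10, against 10 and 13 cells that were low by the same margin, so the upper side held no more cells than the lower. High cells for SPI1 numbered 5 and 8, and for IRF8 3 and 14. In each library 1 cell was high for both RUNX and SPI1, with 1 in replicate 1 and 0 in replicate 2 for both RUNX and IRF8, and 0 and 1 for both SPI1 and IRF8. The rule averages 3 motifs that did not vary as a unit, so a cell high for RUNX1 only could be missed. By the same margin 15 and 12 cells were high for RUNX1 taken by itself. Whether the 1 cell high for both SPI1 and IRF8 was among them was not examined.

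The few RUNX-high cells were shallow. Of the 9 in replicate 1, 8 had less than 0.5 times their library's median total, as did 10 of 10 in replicate 2. In all, 125 of 890 and 221 of 1051 cells were that shallow. The highest 1% of cells by RUNX share, 9 and 11 cells, had a median total of 0.127 and 0.173 times that of their library. Their median percentile was 42.2 and 54.4 for SPI1, 78.5 and 64.2 for IRF8, and 49.3 and 66.7 for the POU4F score. They were thus near the middle for SPI1, above it for IRF8 in both libraries, and above it for POU4F in replicate 2 only. Their median percentile of depth, 2.75 and 7.37, was further from the middle than any of these. The part of depth in their RUNX share was not tested.

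At 2 scaled MADs 2 cells met the rule, both in replicate 2. The first stood at 2.58 scaled MADs for RUNX and 2.14 for SPI1, with IRF8 just past the threshold, and had 1059633 motif counts, of which 497 were RUNX1, 154 SPI1 and 48 IRF8, and 4 of 8 motifs of the myeloid list (SPI1, SPIB, SPIC, IRF8, IRF5, IRF4, CEBPA and CEBPB) lay above their library's median. The second had 374550 counts, with 173 of RUNX1, 57 of SPI1 and 18 of IRF8, and 4 of 8 myeloid motifs above the median. The mean over the myeloid list stood at 2.69 scaled MADs in the first cell and at -0.86 in the second, so the first was past 2 scaled MADs over the list and the second was not. With a minimum of 1000000 counts, which left 1721 cells and for which medians and MADs were taken anew, 0 cells met the rule at 3 and 0 at 2 scaled MADs, although the first cell passes that minimum.

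**Figure D2:**
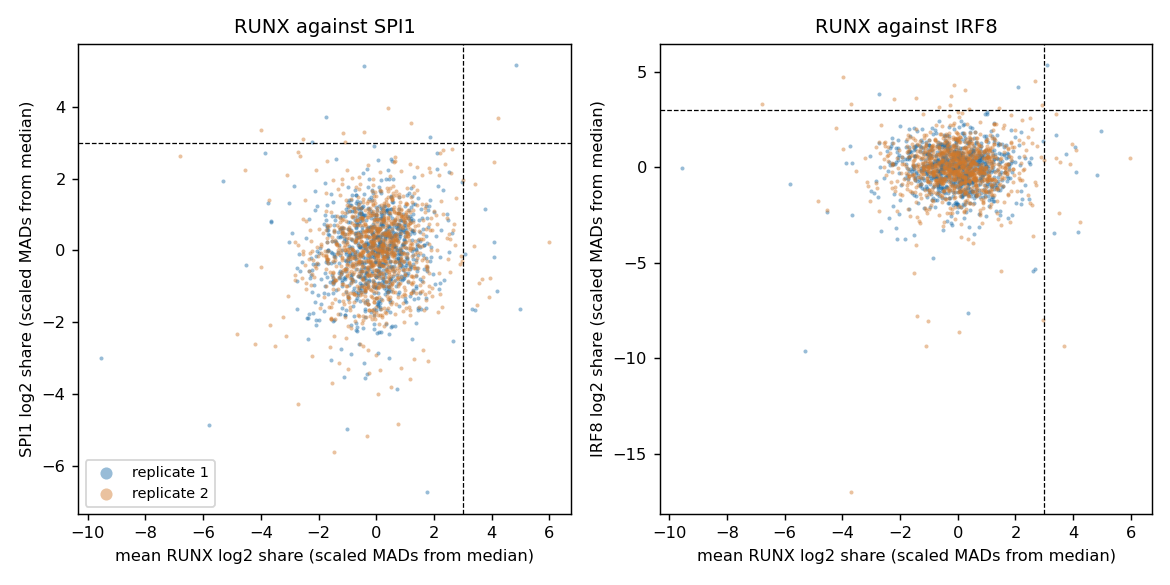
Each point is a kept cell of replicate 1 (blue) or 2 (orange). The horizontal axis is the mean RUNX log2 share and the vertical axis the SPI1 (left) or IRF8 (right) log2 share, both with depth regressed out and in scaled MADs from the library's median; dashed lines mark 3. The upper right corner of the left panel holds 1 cell of each library and that of the right panel 1 cell of replicate 1, and no cell lies in both corners.

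In the highest 5% of cells by RUNX share, SPI1 and IRF8 together had 0.0162% of counts in replicate 1, against 0.0157% in the other cells, and 0.0157% against 0.0152% in replicate 2, a log2 difference of 0.047 ± 0.0038 (SD, n = 2). Each list was taken here as the sum of its shares, unlike the mean log2 share used for the 2 single cells above. The whole myeloid list differed by -0.0038 ± 0.0073, with 5 of 8 motifs higher and 1 lower in both libraries. It held 2.15% of counts in the other cells of replicate 1, so its most frequent motifs set this value. SPI1 and IRF8 hardly entered it. The 3 POU4F motifs were all lower, by -0.076 ± 0.019. Blood motifs (GATA1, GATA2, GATA1::TAL1, TAL1::TCF3 and KLF1) stood at 0.0097 ± 0.0099 and endothelial ones (ERG, FLI1, ETS1, ELK3 and SOX17) at 0.0024 ± 0.011. The blood, endothelial and whole myeloid differences were smaller than their SD between libraries. Summed over all kept cells, no motif of these lists was at 0 in both libraries. The highest 5% of cells were picked by RUNX share, so their differences describe that choice and carry no test.

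The second question was whether RUNX motifs vary along the ganglion cell program. Cells of each library were ranked by the mean log2 share of POU4F1, POU4F2 and POU4F3 and divided into 5 classes of equal size, called quintiles here, of 178 cells in replicate 1 and 210 or 211 in replicate 2. RUNX2 and RUNX3 were slightly lower in the highest quintile than in the lowest, and RUNX1 did not differ detectably. Of the POU4F motifs that made the ranking, POU4F1 differed by a log2 share of 0.52 between these quintiles, so the RUNX differences were small beside it.

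The RUNX2 share in replicate 1 was 0.0330%, 0.0327%, 0.0327%, 0.0322% and 0.0319% from the lowest to the highest POU4F quintile. In replicate 2 it was 0.0329%, 0.0325%, 0.0327%, 0.0325% and 0.0321%. The highest quintile was the lowest of all 5 in both libraries. The log2 difference between the ends was -0.041 ± 0.010 (SD, n = 2), or -2.81%. In edgeR's quasi-likelihood test on summed counts, with trimmed-mean (TMM) scaling, a term for the library and Benjamini-Hochberg adjustment over all motifs, it was -0.036 ± 0.0092 (SE; adjusted p = 0.00415).

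The RUNX3 share followed another course. It was 0.0671%, 0.0678%, 0.0676%, 0.0679% and 0.0650% across the quintiles of replicate 1, and 0.0665%, 0.0669%, 0.0672%, 0.0668% and 0.0651% in replicate 2. It was level or slightly higher through the middle quintiles and lower only in the last, where both libraries lay below all of their other quintiles. The difference between the ends was -0.038 ± 0.011 (SD, n = 2), or -2.57%, and -0.032 ± 0.0077 in edgeR (SE; adjusted p = 0.00275). Without the library as a block the RUNX3 call was lost (edgeR adjusted p = 0.0954) and that of RUNX2 was not (adjusted p = 0.0346).

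The RUNX1 share was 0.0407%, 0.0402%, 0.0404%, 0.0403% and 0.0406% in replicate 1 and 0.0418%, 0.0421%, 0.0418%, 0.0419% and 0.0415% in replicate 2. The quintiles had no common order in the libraries. The ends differed by -0.0068 ± 0.0067 (SD, n = 2) and by -0.0018 ± 0.012 in edgeR (SE; adjusted p = 0.904), and the sign turned under 6 of the other settings tried. Whether RUNX1 differs from RUNX2 and RUNX3 in this respect was not tested.

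These calls must be read against a broad background. In the same comparison 343 motifs of all were called (59.2%), 144 higher (24.9%) and 199 lower (34.4%), beside 2 of 3 RUNX motifs lower, so a lower call was common among motifs. The median RUNX log2 difference was -0.032, against -0.0058 over all motifs, and 221 motifs had a larger absolute difference than RUNX2 and 255 a larger one than RUNX3. Without the library as a block 120 motifs were called. SPI1 fell by 0.079 ± 0.013 on the log2 scale (SE; edgeR adjusted p = 0.000167), while IRF8 stood at 0.040 ± 0.024 (adjusted p = 0.17). The SPI1 call was lost without the library as a block (edgeR adjusted p = 0.415) and with cells kept at 0.25 to 4 times the median total of all barcodes (0.2), and its value was -0.050 within depth classes. Of other lists, all 4 TEAD motifs, 8 of 10 promoter SP/KLF motifs and 6 of 7 E2F motifs fell in the same comparison, and all 3 ONECUT and all 5 proneural motifs rose. The remaining lists were called in part. Of SOX motifs, also a progenitor list, 2 of 5 rose and 1 fell, unlike TEAD. Of CRX and OTX motifs 2 of 3 fell, of blood motifs 3 of 5 rose, and of TFAP2 motifs 1 of 3 rose. Of endothelial motifs 1 of 5 fell, and in the whole myeloid list 1 of 8 rose and 3 fell.

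**Figure D3:**
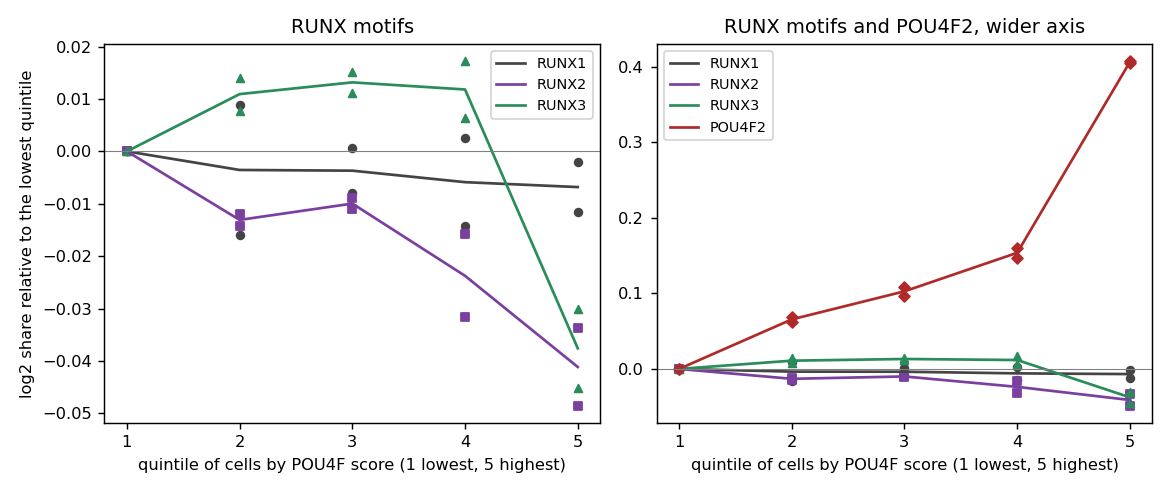
Mean log2 share relative to the lowest quintile (lines) and the value of each library (points) across quintiles of cells by POU4F score, for RUNX motifs alone (left) and with POU4F2, which is part of the score, on a wider axis (right). RUNX2 and RUNX3 end at -0.041 and -0.038, RUNX1 at -0.0068 and POU4F2 at 0.41.

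Depth was not the same across the quintiles: median totals were 2966541 and 3442695 in the lowest and highest quintile of replicate 1, and 3119058 and 3182016 in those of replicate 2. With quintiles taken within 3 depth classes RUNX2 stood at -0.028 and RUNX3 at -0.025 (edgeR adjusted p = 0.0109 for both). In the cells above their library's median total the values were -0.030 and -0.034. Across all kept cells RUNX3 had an r of -0.18 and -0.15 with POU4F1 in replicates 1 and 2, and RUNX2 of -0.16 and -0.13. In the deepest class RUNX3 had -0.40 and -0.19 and RUNX2 -0.24 and -0.069.

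POU4F-high cells include some that are also high for the proneural motifs (NEUROD1, NEUROD2, Neurog1, NEUROG2 and Atoh1), patterns of factors that drive neuron formation. Relative to cells in neither highest quintile, 583 and 681 in number, RUNX3 was lower by a log2 share of -0.056 ± 0.013 (SD, n = 2) in the 129 and 160 cells high for POU4F only. It stood at -0.045 ± 0.017 in the 49 and 50 cells high for both, and at -0.034 ± 0.0066 in the 129 and 160 cells high for proneural motifs only. RUNX3 was thus below the remaining cells in all of these classes and in both libraries. RUNX2 stood at -0.034 ± 0.0027 in the POU4F-only class, -0.015 ± 0.023 where both were high and -0.0022 ± 0.0031 in the proneural-only class. RUNX1 stood at -0.0067 ± 0.015, -0.0019 ± 0.015 and -0.012 ± 0.0047 in these classes, and in the first and second of them it was above the remaining cells in replicate 1 (0.0042 and 0.0090) and below them in replicate 2 (-0.018 and -0.013). These classes are ranges of a score and not cell types, and their differences were not tested.

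RUNX motifs were also compared along 12 other scores, which rank the same cells and are not independent of each other. Of 39 pairs of a RUNX motif and a score, POU4F included, 18 were called, and the share of all motifs called was wide in range: 19% for the SPI1 and IRF8 score, 43.7% for E2F, 48.9% for CRX and OTX, 54.9% for proneural, 55.6% for blood, 61% for endothelial, 62.9% for ONECUT, 66.1% for total count, 76.2% for promoter, 80.5% for TEAD and 81.3% for both SOX and TFAP2. No call reached a log2 difference of 0.1; the largest was 0.055. On 0 of 13 scores were all 3 motifs called in the same direction, and on 4 scores they were called in opposite directions, which fell to 1 score (TFAP2) without the library as a block. POU4F1 moved along most of these scores too: in edgeR it differed by 0.31 along ONECUT, 0.15 along blood, -0.26 along TEAD, -0.17 along E2F and -0.13 along SOX motifs, and its part in the RUNX values was not tested. Without TMM scaling the lower share of all calls moved from 37.9% to 50.1% for blood, 47.6% to 59.4% for endothelial, 53.0% to 35.5% for E2F, 52.7% to 40.4% for total count, 39.1% to 51.3% for SPI1 and IRF8, and 47.3% to 59.2% for CRX and OTX.

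RUNX3 had the largest differences along the progenitor lists. It was higher in the quintile of cells richest in SOX motifs, by 0.063 in replicate 1 and 0.047 in replicate 2 (edgeR log2 difference of 0.055, adjusted p = 2.53e-05), where 41.3% of motifs were called higher. Along TEAD motifs it was higher by 0.071 and 0.040 (0.052 in edgeR, adjusted p = 0.000137; 41.3% of motifs higher). SOX and TEAD motifs were the lists for progenitors. RUNX3 was lower along some lists of differentiating cells. Along TFAP2, the amacrine cell factors, it differed by -0.049 and -0.043 (edgeR adjusted p = 2.84e-05, with 40.6% of motifs lower). Along ONECUT, the horizontal cell factors, it differed by -0.054 and -0.032 (edgeR adjusted p = 0.00137, with 32.6% lower). The edgeR log2 difference for ONECUT was -0.038, and -0.020 within depth classes. Along proneural motifs it differed by -0.030 and -0.019 (edgeR adjusted p = 0.0037, with 27.6% lower). Along CRX and OTX, the photoreceptor list, RUNX3 was not called (-0.014 in edgeR, adjusted p = 0.109), with alternatives given below. RUNX3 also rose along E2F, by 0.031 and 0.025 (adjusted p = 0.0239; 20.6% higher). Without the library as a block the proneural and E2F calls were lost (adjusted p = 0.133 and 0.263). Along ONECUT the POU4F motifs rose as well, by edgeR log2 differences of 0.31, 0.20 and 0.25 for POU4F1, POU4F2 and POU4F3. The ONECUT comparison therefore overlaps with the POU4F one and does not single out horizontal cells.

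RUNX2 had its largest difference along promoter motifs. It was higher in cells rich in SP and KLF motifs, GC-rich patterns of promoters, by 0.047 and 0.036 (edgeR log2 difference of 0.041, adjusted p = 0.000174; 36.4% of motifs higher), where RUNX3 was lower (-0.015, adjusted p = 0.0386; 39.7% lower; 0.251 without the block). Along TFAP2, RUNX2 rose by 0.028 and 0.030 (adjusted p = 0.00165; 40.8% higher) while RUNX3 fell, and along the endothelial ETS score RUNX2 rose by 0.024 and 0.028 (adjusted p = 0.00339; 32% higher). RUNX2 was not called along SOX (0.0055, adjusted p = 0.511) or TEAD (-0.0085, adjusted p = 0.375). Along total count it was lower (-0.027, adjusted p = 0.0224; 34.9% lower), with values of -0.037 and -0.0020 in the libraries, and this call was lost without TMM scaling (adjusted p = 0.0523) and without the block (adjusted p = 0.286), where 0 motifs in all were called by edgeR and 132 had an unadjusted p below 0.05.

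RUNX1 was called on 3 scores. Along blood motifs it rose by 0.027 and 0.034 (edgeR log2 difference of 0.036, adjusted p = 0.00196; 34.5% of motifs higher), where RUNX3 was lower (-0.027, adjusted p = 0.0154; 21.1% lower; adjusted p = 0.115 without the block). Along the same score SPI1 stood at -0.086 (adjusted p = 3.3e-05) and POU4F1 at the value given above, so the cells at its upper end had a higher POU4F1 and a lower SPI1 share. Along endothelial motifs it fell by 0.040 and 0.035 on the log2 scale (adjusted p = 0.00256; 29% lower). Along TEAD it rose by 0.021 and 0.030 (adjusted p = 0.0194). RUNX1 also differed between the libraries, as given above, and without the library as a block 0 of these 3 calls held (edgeR adjusted p = 0.543, 0.654 and 0.662 for the blood, endothelial and TEAD scores).

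Along the score of SPI1 and IRF8 only RUNX2 was called higher, by 0.021 and 0.026 (edgeR log2 difference of 0.026, adjusted p = 0.023; 11.6% of motifs higher). RUNX1 stood at -0.015 (adjusted p = 0.204) and RUNX3 at -0.0041 (adjusted p = 0.784). The RUNX2 call was lost within depth classes (adjusted p = 0.0922) and without the block (adjusted p = 0.23). RUNX1, the member used by microglia, was lower along this score in both libraries, by -0.013 and -0.020, without passing the test. Between the ends of this score IRF8 differed by 0.63 and SPI1 by 0.16 (edgeR log2 differences), so it ranked cells mainly by IRF8. Median counts of IRF8 were 106 and 115 per cell, with a CV from counting alone of 12.1% and 12.6%. Part of the ranking was thus counting noise, and the score is a weak guide to myeloid cells. Along the CRX and OTX motifs of photoreceptors no RUNX motif was called (48.9% of motifs were), at 0.0050, 0.019 and -0.014 for RUNX1, RUNX2 and RUNX3 (adjusted p = 0.718, 0.0852 and 0.109), but RUNX3 passed without TMM scaling (0.0343) and within depth classes (0.0404).

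**Figure D4:**
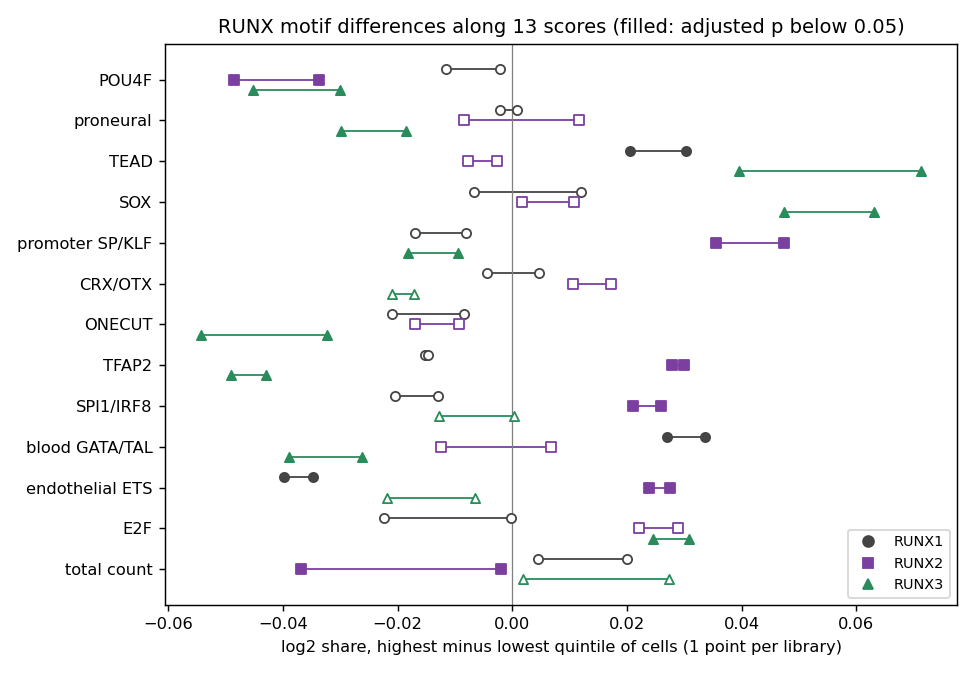
Difference in log2 share between the highest and lowest quintile of cells (horizontal axis), with 1 point per library joined by a line, for RUNX1 (circles), RUNX2 (squares) and RUNX3 (triangles) along 13 scores (rows); filled symbols passed the edgeR test at an adjusted p below 0.05. All values lie between -0.054 and 0.071, and on no row are all 3 motifs filled on the same side.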

How the data were processed

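The authors deposited, per the file headers, raw whole-number counts in a matrix of 579 motifs by barcode for each library, made with software version 1.1.0. Cell Ranger and the mm10 build, which is GRCm38, come from the submitters' processing notes. How peaks were called and motifs searched is not given in the sources used here. The members and lists were chosen with earlier results of these data known. Shares are counts over the cell's total; log2 shares used a pseudocount of 0.5. Scores are mean log2 shares of a list, and cells were divided into 5 classes per library. Counts were summed per library and class (10 sums, 4 residual degrees of freedom) and tested with edgeR 4.0.16 (R 4.3.3; glmQLFit, glmQLFTest, TMM, library as a block), with Benjamini-Hochberg adjustment over all 579 motifs and a threshold of 0.05. Named motifs were the members, SPI1, IRF8, the POU4F motifs, and the 8 most and 4 least correlated with the mean RUNX share. Of the motifs under this rule and in the myeloid list, 2 are not reported here, and the list was computed without its own. On simulated sums for the POU4F comparison over 579 motifs, 53 of 100 motifs changed 1.03-fold and 100 of 100 changed 1.1-fold were called, as were 27 of 379 unchanged ones. The unchanged ones were thus a larger part of the calls than the threshold of 0.05 allows. Their median log2 difference was -0.013, toward lower. Only increases were simulated, so decreases like those of RUNX2 and RUNX3 were not covered. Replicate 1 held 3373212147 counts over 2422 barcodes and replicate 2 held 3932721221 over 3033; the kept cells held 98.3% and 97.3% of these. DESeq2 1.42.0 and limma 3.58.1 were alternatives.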

Additional observations from a re-analysis of the deposited data

How the results depend on the processing

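Between the POU4F quintiles, RUNX2 and RUNX3 kept a negative sign under every alternative run. Both calls were lost only with the first cell filter of 0.25 to 4 times the median total, whose barcodes are mostly shallow (RUNX2 -0.055, adjusted p = 0.51; RUNX3 -0.038, adjusted p = 0.411), and RUNX3 with no replicate block (-0.033). RUNX1 stood at -0.085 with the first cell filter (edgeR adjusted p = 0.07), its lowest value under any setting, and was not called. Without 1 library, which leaves no test, RUNX2 ranged from -0.049 to -0.034, RUNX3 from -0.045 to -0.030 and RUNX1 from -0.012 to -0.0021. The uncalled RUNX1 turned sign with motifs of at least 100 counts per cell (0.00063), within depth classes (0.0051), with 10 classes of cells (0.018), with POU4F2 alone (0.0062), without the deepest 5% of cells (0.0017) and with a minimum of 1000000 counts (0.00059); the cause was not tested. The motifs called numbered 343, and 120 with no replicate block, 56 with the first filter, 407 with DESeq2, 378 without TMM and 405 with limma, the last of which was chosen after seeing the data, as were the cells above the median total and the higher minimum for the immune rule. Lower calls made up 58.0% of calls, 66.1% without TMM and 48.8% within depth classes. In the middle depth class the excess CV was 3.74% for RUNX1, 4.42% for RUNX2 and 3.39% for RUNX3, where fewer shallow cells enter; without 1 library it ranged from 4.73 to 5.05%, 5.12 to 5.53% and 4.05 to 4.2%. Cells meeting the immune rule numbered 0 under all alternatives but the lower threshold (2 cells). On the other 12 scores 15 of 16 calls held without TMM, 14 of 15 within depth classes and 7 of 16 with no replicate block; none of the 16 reversed, and 5 uncalled values passed under an alternative. Uncalled values that reversed within depth classes were RUNX1 along proneural (0.0055) and SOX (-0.0051), RUNX2 along SOX (-0.0022) and ONECUT (0.0043) and RUNX3 along SPI1 and IRF8 (0.00065), and without TMM RUNX2 along blood (-0.0028).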
